A study of Mus musculus with 12 samples.

Results

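The spleens of mice given busulfan are compared here with those of mice not given it, averaged over 2 states of another treatment, alginate oligosaccharides (AOS, short sugar chains cut from the seaweed polysaccharide alginate). All 12 RNA-seq libraries of the study entered, and 15079 of 19376 gene rows passed the filter on low counts. The busulfan group (3 libraries) had the drug once at 40 mg/kg. The group of busulfan with AOS (3 libraries) had the same single dose, followed by 5 weeks of AOS at 10 mg/kg. The AOS group (3 libraries) had only the 5 weeks of AOS at that dose, and the control group (3 libraries) had no treatment. The strain is labelled IRC, and no age, sex or, for the group without AOS, time from drug to sampling is stated in the labels. The busulfan effect reported for each gene is the mean of the busulfan and busulfan with AOS groups minus the mean of the AOS and control groups on the log2 scale, so each group had the same weight. Whether libraries of 1 group are separate mice is not stated in the labels, and a p-value here measures the spread between libraries, some of which may be technical.

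Busulfan is an alkylating agent that crosslinks DNA and is used to empty the bone marrow before stem cell transplants. DNA damage stabilises the transcription factor p53, which switches on genes that halt the cell cycle or start cell death. The mouse spleen holds B cell follicles, T cell zones and a red pulp in which macrophages clear old red cells, and it keeps a reserve of blood-forming precursors throughout life. In bulk tissue, fewer cells of a type and less RNA per cell cannot be told apart.

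The libraries held 15051297 to 16241883 counts each. The label of the tissue reads Cells while the design text names spleen, and spleen markers were high in every library: Ms4a1 of B cells stood at 169 to 344 FPKM (fragments scaled to gene length and library size), Marco of marginal zone macrophages at 38.7 to 103 FPKM and Spic of red pulp macrophages at 34.2 to 68.2 FPKM. Some libraries stood apart. Pancreatic acinar genes, which encode digestive enzymes, took 0.296%, 4.46% and 0.526% of the counts of AOS 1, 2 and 3 but 0.0019% to 0.240% in the other 9 libraries, fat cell genes were highest in control 1 (0.0365%, against 0.00446% to 0.0104% elsewhere), and heat shock genes took 0.418% to 0.450% in busulfan with AOS against 0.654% to 1.43% in the other 9. The summed share of 12 liver genes was 0.0011% to 0.0148% in the 6 busulfan libraries and 0.0053% to 0.0465% in the other 6. The part of these transcripts in the results was not tested beyond the fits that leave out libraries or add a covariate.

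Genes called higher with busulfan included 7 of 30 p53 targets, led by Eda2r, 9 of 24 DNA replication genes and 9 of 17 late neutrophil genes, and genes called lower included 9 of 19 natural killer (NK) cell and 10 of 18 B cell genes. edgeR called 1241 of 15079 genes (8.23%) at an adjusted p under 0.05, 468 of them (3.1%) higher and 773 (5.13%) lower with busulfan, and 4468 genes had an unadjusted p under 0.05. Most changes were small: the median log2 fold change was 0.40 among the genes called higher and −0.34 among those called lower, and 66 and 74 genes passed a log2 of 1 in either direction. The 6 busulfan libraries all lay above the other 6 in 147 genes (0.975%) and all below in 300 (1.99%).

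The number of calls rested on single libraries. It was 232 without AOS 1, 644 without AOS 2, 659 without AOS 3, 814 without busulfan 1, 1174 without busulfan 2 and 285 without busulfan 3. Without library 1, 2 or 3 of busulfan with AOS it was 717, 83 and 630, and without control 1, 2 or 3 it was 231, 143 and 2054. Of the 1241 genes, 74 were called in every one of these 12 fits. Of 108 called genes followed through these fits, among them those named below, 24 were called in all 12. Many list counts were also lower in 2 other fits, one without both control 1 and AOS 2 and one with the heat shock level as a covariate. With the covariate the plasma cell count was higher (4 against 3), as was that of the heat shock list itself (3 against 0). Without both libraries edgeR called 1 p53 target and 1 NK gene, and 0 genes of the replication, mitosis, neutrophil, eosinophil, B cell, follicular and marginal zone, plasma cell, T cell, lipid receptor, sialic acid and liver lists. With the covariate it called 2 p53 targets, 1 NK gene, 1 B cell gene, 2 follicular and marginal zone genes, 1 eosinophil gene, 4 plasma cell genes and 2 lipid receptor genes, and 0 replication, mitosis, neutrophil or liver genes.

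**Figure D1:**
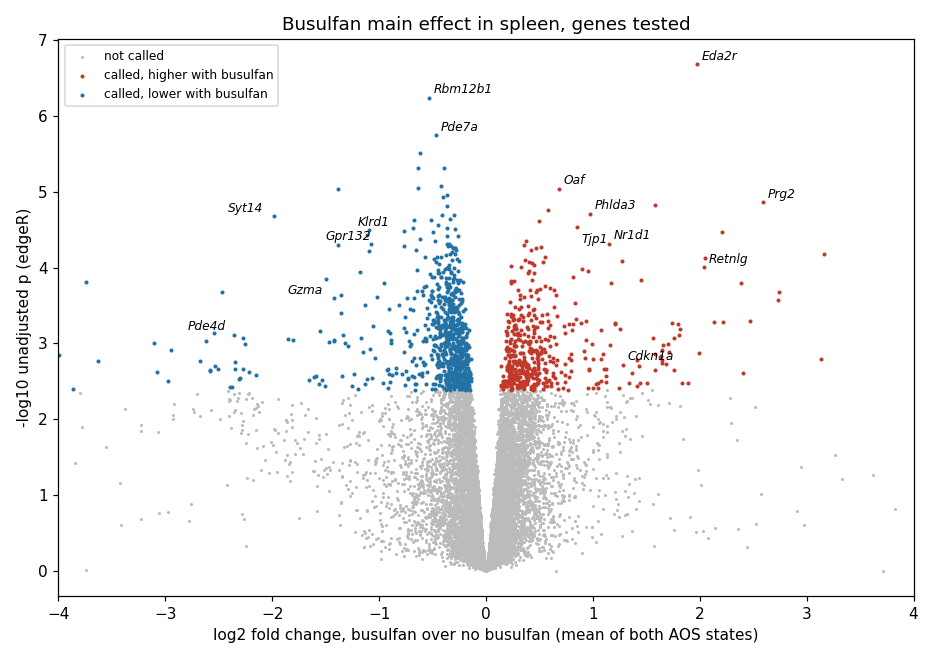
Busulfan effect over both AOS states for the genes tested: the x axis is the log2 fold change of busulfan over no busulfan, the y axis the negative log10 of the unadjusted edgeR p, red points are genes called higher, blue points genes called lower and grey points genes not called (19 genes beyond ±4 on the x axis are not drawn). The 773 genes called lower crowd between 0 and −1, while granulocyte genes such as Prg2 (2.59) and Retnlg (2.04) lie far to the right and Eda2r (1.97) has the smallest p.

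Eda2r, a p53-induced death receptor of the tumour necrosis factor receptor family (Entrez 245527, GRCm38.p6 chromosome X, 97333837 to 97377234), had the smallest p of all genes. It stood at 5.81, 6.80 and 6.46 CPM (counts scaled to library size) with busulfan and 4.01, 4.73 and 6.53 CPM with busulfan and AOS, against 1.79, 1.32 and 1.197 CPM with AOS and 1.21, 1.34 and 1.79 CPM in controls. Every busulfan library lay above every other library, and the gene rose by a log2 of 1.97 ± 0.17 (SE, edgeR adjusted p = 0.00311), a 3.93-fold change, with 2.13 without AOS and 1.82 with AOS. Phlda3, a p53-induced inhibitor of the kinase Akt (Entrez 27280, chromosome 1, 135766085 to 135769134), had 9.08 CPM at the lowest, 11.9 at the median and 16.1 at the highest in the busulfan libraries, against 4.65, 6.30 and 7.18 CPM in the others. The libraries did not overlap, and Phlda3 rose by 0.98 ± 0.14 (edgeR adjusted p = 0.0152).

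Cdkn1a encodes p21, the inhibitor of cyclin-dependent kinases through which p53 halts the cell cycle (Entrez 12575, chromosome 17, 29090979 to 29100722). Its level was 6.65, 7.37 and 14.8 CPM (lowest, median and highest) with busulfan and 1.85, 4.63 and 4.84 CPM without. The libraries did not overlap here either, although single libraries of each busulfan group (14.8 and 13.01 CPM) stood well above the other 4 (6.65 to 7.53 CPM). The rise was 1.28 ± 0.32 (edgeR adjusted p = 0.0375), 1.25 without AOS and 1.32 with AOS, and it was called in 2 of the 12 fits with a library left out. The bases before the RefSeq start at 29090979 are shown (GRCm38.p6, chr17:29090729-29090978, plus strand). They hold matches to the half-site that p53 binds, in capitals, the nearer one 51 bases from that start. A window of the gene was shown only where it held a match, and whether this is its main start was not tested.
Cdkn1a: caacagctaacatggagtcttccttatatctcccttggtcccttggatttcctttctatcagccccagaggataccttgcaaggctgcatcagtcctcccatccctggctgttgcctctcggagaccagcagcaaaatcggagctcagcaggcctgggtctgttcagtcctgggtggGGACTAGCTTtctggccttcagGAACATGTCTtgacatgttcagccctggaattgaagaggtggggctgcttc

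Of 30 p53 targets tested, 7 rose and 1 fell (26.7% called, beside 8.23% of all genes), and 22 were not called by edgeR, at a median log2 of 0.12. The median was 0.149 without AOS, where 3 were called higher and 0 lower. It was −0.002 with AOS, where 4 were called higher and 2 lower. In both states alike, 11 members had a positive and 5 a negative value. Beside the 3 genes above, Ak1, an adenylate kinase, rose by 0.65 ± 0.12 with no overlap (8.61 to 13.8 CPM with busulfan and 6.36 to 8.24 CPM without). The others called were small or uneven, and the next 3 are named after their values were seen. Aen, a nuclease of cell death, rose by 0.25, with 0.47 without AOS and 0.04 with AOS. Trp53inp1, a stress protein that modifies p53 activity, rose by 0.20, with 0.04 without AOS and 0.36 with AOS. Gtse1, a cell cycle gene that restrains p53, rose by 0.37. Rrm2b, the p53-inducible subunit of ribonucleotide reductase, went against the list and fell by 0.31 ± 0.07 (edgeR adjusted p = 0.0308), with 30.8 to 45.6 CPM with busulfan and 44.4 to 48.8 CPM without. With a library left out, 2 to 6 members were called, and 8 without control 3. The half-site, searched on both strands from 250 bases before to 50 after each start, was found in 10 of 33 windows of the p53 targets (30.3%) and in 6.85% of the windows of all genes tested, which describes the letters of these windows and no binding.

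Genes that repair crosslinks and handle oxidants moved little. Of 22 genes of the Fanconi pathway and crosslink repair, 2 rose (9.09%, beside 3.1% of all genes) at a list median of 0.19. Of these, Fanci, a core member of the Fanconi pathway that is also high in dividing cells, rose by 0.42 ± 0.11, with 24.8 to 36.3 CPM with busulfan and 18.3 to 25.2 CPM without. Of 24 glutathione and antioxidant genes, 3 rose (12.5%) at a list median of 0.12. Gstm5, a glutathione transferase, rose by 0.48 ± 0.13, the superoxide dismutase Sod1 by 0.27 ± 0.06 (213 to 258 CPM with busulfan and 166 to 227 CPM without) and the peroxiredoxin Prdx6 by 0.19 ± 0.05, all with overlapping libraries. Both counts were 0 without AOS 1, busulfan 3, control 1, control 2 or library 2 of busulfan with AOS, the repair count also without library 1 of that group and the antioxidant count also without busulfan 1. Both were 7 without control 3.

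Of 24 DNA replication genes 9 rose (37.5%, beside 3.1% of all genes), and the other 15 were not called. All 24 had a positive value in each AOS state, at a median of 0.38, beside a median of −0.004 over all genes. Cdc45, which opens the replicative helicase together with the MCM ring, had 47.2 CPM at the lowest, 50.3 at the median and 56.2 at the highest with busulfan, against 30.4, 38.0 and 46.9 CPM without. Its libraries just failed to overlap, and it rose by 0.45 ± 0.11 (edgeR adjusted p = 0.0320). Pole, which carries the active site of DNA polymerase epsilon, rose by 0.51 ± 0.12, with 57.9 to 93.6 CPM with busulfan and 39.3 to 69.5 CPM without. The helicase subunit genes Mcm6 (0.45 ± 0.11) and Mcm3 (0.35 ± 0.09) also rose, with overlap in control 3, whose Mcm6 level of 307 CPM lay among the busulfan libraries (260 to 361 CPM).

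Of 24 mitosis genes 4 rose (16.7%, beside 3.1% of all genes) and the other 20 were not called. All 24 had a positive value in each AOS state, at a median of 0.40. Ccnb1, cyclin B1, which drives entry into mitosis, had 94.5, 132 and 171 CPM (lowest, median and highest) with busulfan and 62.7, 84.5 and 112 CPM without. It rose by 0.63 ± 0.15 (edgeR adjusted p = 0.0365), and the libraries overlapped through control 3 and AOS 2. Ttk, a kinase of the spindle checkpoint, rose by 0.52 ± 0.11, Cdc20, which activates the anaphase-promoting complex, by 0.50 ± 0.10, and the mitotic kinase Plk1 by 0.39 ± 0.10. The number called in both lists changed with single libraries, rising without control 3 and falling without several others. Without control 3, 22 genes of each list were called. In DNA replication 0 were called without AOS 1, AOS 3, busulfan 3, control 1, control 2 or library 1 or 2 of busulfan with AOS, 2 without busulfan 2, 3 without busulfan 1, 6 without library 3 of busulfan with AOS and 9 without AOS 2. In mitosis 0 were called without AOS 1, busulfan 3, control 1, control 2 or library 2 of busulfan with AOS, 2 without AOS 3 or library 1 of busulfan with AOS, and 3 to 5 without each of the rest.

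The promoters of these lists differ in short motifs through which cell cycle genes are known to be timed. E2F factors bind a core, searched as TTTCCCG, alternatively as TTTCGCG, further as TTTGCCG and finally as TTTGGCG on either strand, and the cell cycle homology region, CHR (TTTGAA, either strand), is a site of mitotic genes. The E2F core was found in 12 of 23 windows of DNA replication genes (52.2%), in 3 of 21 windows of mitosis genes (14.3%) and in 9.98% of the windows of all genes tested. The CHR letters were found in 16 of 21 windows of mitosis genes (76.2%), in 3 of 23 of DNA replication genes and in 12.7% over all genes tested. A replication and a mitosis gene that rose are shown, with these letters in capitals, from windows chosen because they held a match. The 250 bases before the start of Mcm6 (RefSeq, GRCm38.p6, chr1:128359706-128359955, minus strand) hold 3 core matches, of which 2 overlap in opposite directions, and those before Cdc20 (chr4:118437344-118437593, minus strand) hold 1 CHR match, 18 bases from the start.
Mcm6: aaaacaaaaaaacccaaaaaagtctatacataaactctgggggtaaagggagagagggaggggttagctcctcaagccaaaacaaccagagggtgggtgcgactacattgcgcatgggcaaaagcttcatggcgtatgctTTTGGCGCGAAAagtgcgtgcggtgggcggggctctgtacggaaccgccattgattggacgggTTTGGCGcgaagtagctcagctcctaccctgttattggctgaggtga
Cdc20: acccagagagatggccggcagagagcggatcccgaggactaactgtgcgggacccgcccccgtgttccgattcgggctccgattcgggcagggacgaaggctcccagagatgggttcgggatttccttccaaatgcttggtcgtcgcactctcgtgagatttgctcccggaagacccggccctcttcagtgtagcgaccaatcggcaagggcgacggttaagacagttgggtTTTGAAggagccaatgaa

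Granulocyte genes were among those that rose by a log2 of more than 2. Prg2, which encodes major basic protein, the main granule protein of eosinophils (Entrez 19074, chromosome 2, 84980461 to 84983632), stood at 22.2, 9.43 and 36.6 CPM with busulfan and 4.94, 11.7 and 8.45 CPM with busulfan and AOS, against 2.50, 4.63 and 2.77 CPM with AOS and 2.04, 1.27 and 1.41 CPM in controls. The busulfan libraries all lay above the others, and the spread within the busulfan group was wide. The rise was 2.59 ± 0.35 on the log2 scale (edgeR adjusted p = 0.0152), 3.85 without AOS and 1.34 with AOS, and it was called in all 12 fits with a library left out. Of 10 eosinophil genes 5 rose, at a median of 0.86. Epx, eosinophil peroxidase, rose by 2.38 ± 0.42 and Ear1, an eosinophil ribonuclease with near-identical relatives among which reads may have been split, by 2.21 ± 0.46, in both cases with overlap of the libraries.

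Of 17 genes of late and mature neutrophils 9 rose, at a median of 1.05, and of 14 genes of early neutrophil granules 7 rose, at a median of 1.35. Retnlg, a resistin-like protein that neutrophils secrete, had 11.7, 26.9 and 124 CPM (lowest, median and highest) with busulfan and 5.30, 10.2 and 13.7 CPM without. It rose by 2.04 ± 0.34 (edgeR adjusted p = 0.0174) with overlap in library 1 of busulfan with AOS. S100a9, a calcium-binding protein abundant in neutrophils, rose by 1.65 ± 0.38, with 302 to 3344 CPM with busulfan and 208 to 472 CPM without. Mmp8, the neutrophil collagenase, and the surface marker Ly6g rose by 1.80 ± 0.38 and 1.82 ± 0.39. Among the granule genes, the antimicrobial peptide Camp rose by 1.71, lactoferrin (Ltf) by 1.72, the serine protease Prss57 by 1.58 and Chil3, a chitinase-like protein of myeloid cells, by 1.76.

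The size of this rise depended on the library. Of the busulfan libraries, busulfan 3 had the highest levels (2.64 above the mean of all 12 libraries on the log2 scale for early granule genes, 1.86 for late genes), busulfan 1 came next (1.51 and 0.91) and busulfan 2 was near the mean (0.21 and 0.03). In busulfan with AOS, library 1 lay among the libraries without the drug (−0.95 and −0.65, beside −1.18 to −0.23 and −1.01 to −0.24), and libraries 2 and 3 lay just above them. The list medians were 2.43 and 1.88 without AOS and 0.38 and 0.39 with AOS. The difference between the AOS states was tested gene by gene and was not called for any of the early, late or eosinophil genes, with edgeR adjusted p = 0.0998 for Retnlg and 0.114 for Prg2. Without busulfan 2, 13 early and 13 late genes were called. Without library 2 of busulfan with AOS 0 were called in either list, and without AOS 1, AOS 2, AOS 3, busulfan 3, control 1, control 2 or library 3 of busulfan with AOS 0 early and 1 to 4 late genes were called. The eosinophil count stayed between 1 (without library 2 of busulfan with AOS) and 6, and was 2 without AOS 1.

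Other myeloid genes had smaller values. Hdc, which makes histamine and marks basophils, rose by 1.13 ± 0.29 and Cma1, a chymase of mast cells, fell by 1.11 ± 0.29 at 0.55 to 1.65 CPM with busulfan and 0.83 to 3.28 CPM without. Hdc stood at 15.9, 5.52 and 20.4 CPM with busulfan and at 2.55 to 4.72 CPM in the other 9 libraries. Both calls rested on single libraries, since Hdc was called in 2 and Cma1 in 1 of the 12 fits with a library left out. Of 12 monocyte genes 0 were called by edgeR, 4 had an unadjusted p under 0.05 and DESeq2 called 2, at a median of 0.32, and the monocyte gene F13a1, the coagulation factor XIII subunit, had a value of 0.83 ± 0.25.

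**Figure D2:**
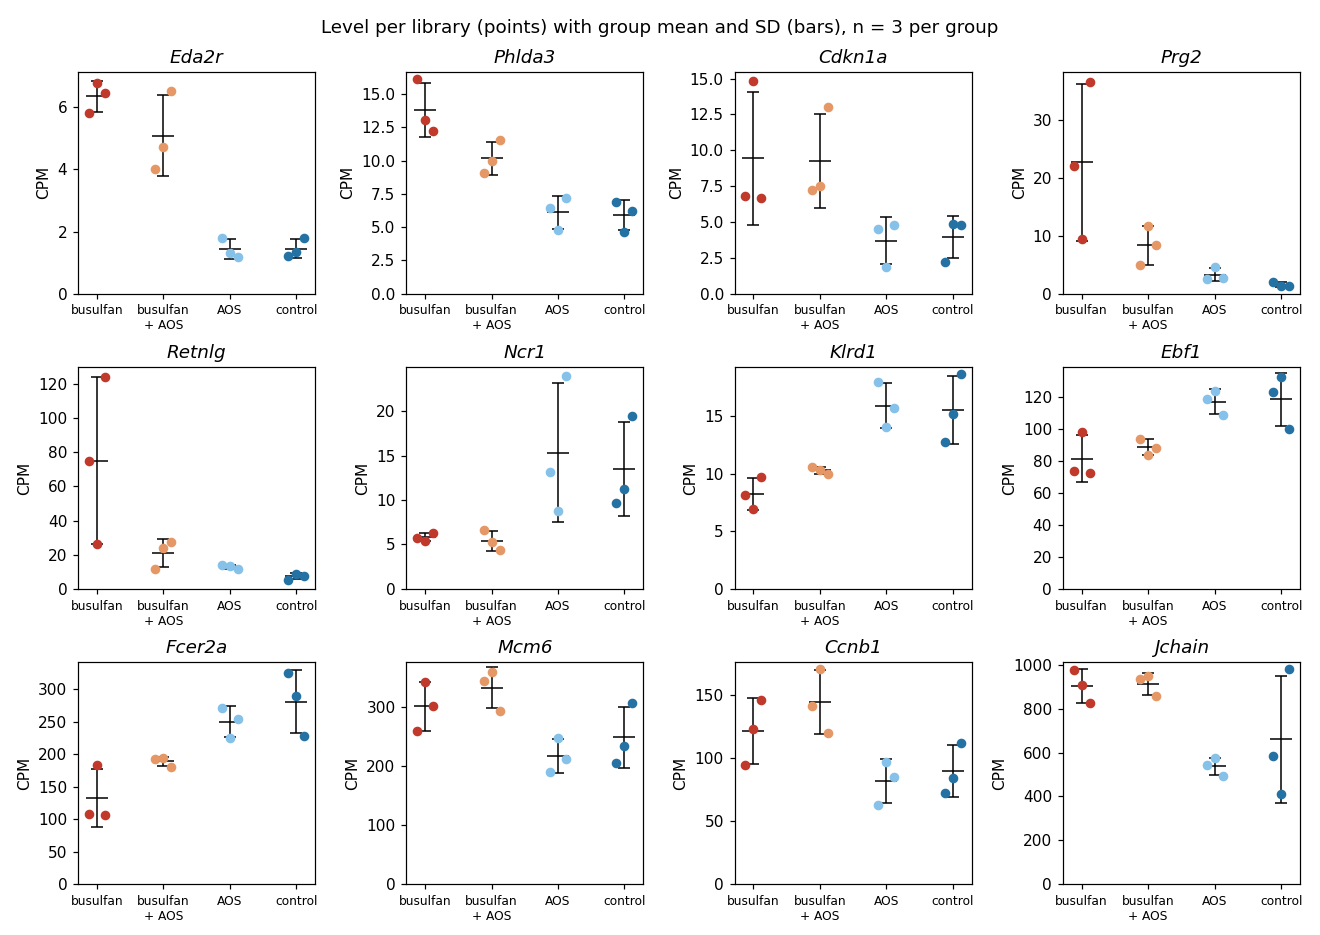
Level of 12 genes in CPM (y axis, from 0) in each library (points) of the 4 groups, with group mean and SD (bars, n = 3 per group). Eda2r, Phlda3, Cdkn1a and Prg2 are above every library without busulfan in all 6 busulfan libraries, Ncr1, Klrd1, Ebf1 and Fcer2a are below, and Retnlg shows the spread from 26.2 to 124 CPM among the 3 busulfan libraries without AOS.

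Of 19 NK and cytotoxic genes 9 fell (47.4%, beside 5.13% of all genes) and all had a negative value, at a median of −0.66, and in 5 the busulfan libraries lay wholly below the others. Klrd1, the CD94 chain of inhibitory and activating NK receptors (Entrez 16643, chromosome 6, 129588092 to 129598775), stood at 8.11, 6.93 and 9.69 CPM with busulfan and 10.6, 10.3 and 9.99 CPM with busulfan and AOS, against 17.9, 14.04 and 15.7 CPM with AOS and 12.8, 15.2 and 18.7 CPM in controls. It fell by 0.77 ± 0.11 on the log2 scale (edgeR adjusted p = 0.0157) and was called in each AOS state and under each of the 28 alternatives fitted. Ncr1, the activating receptor NKp46, had 4.38, 5.57 and 6.61 CPM (lowest, median and highest) with busulfan and 8.81, 12.2 and 24.0 CPM without, a fall of 1.36 ± 0.25 (edgeR adjusted p = 0.0201). Gzma, granzyme A, fell by 1.43 ± 0.27 with no overlap, at 8.63 to 17.9 CPM with busulfan and 20.1 to 49.3 CPM without. The spread was wide on the side without the drug, where AOS 3 and control 3 had the highest levels of both genes.

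Fasl, the death ligand of cytotoxic lymphocytes, fell by 1.18 ± 0.20, Eomes, a transcription factor of NK and memory T cells, by 0.65 ± 0.11, and the lectin-like receptor gene Klri2, outside the list, by 0.96 ± 0.17. The level of the whole NK list was −0.55 to −0.13 in the busulfan libraries and 0.05 to 0.83 in the others, with no overlap. The medians were −0.76 without AOS and −0.60 with AOS. With a library left out 5 to 9 members were called, and 3 without library 2 of busulfan with AOS. The count was 1 without both control 1 and AOS 2, and 1 with the heat shock covariate.

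Of 18 B cell genes 10 fell (55.6%, beside 5.13% of all genes) and all had a negative value, at a median of −0.39. Bank1, an adaptor of B cell receptor signalling, had 192, 213 and 247 CPM (lowest, median and highest) with busulfan and 245, 284 and 315 CPM without, and fell by 0.39 ± 0.08 (edgeR adjusted p = 0.0250). The libraries overlapped through control 3, the lowest without the drug. Ebf1, a transcription factor that sets B cell identity, fell by 0.47 ± 0.09 with no overlap (72.2 to 98.3 CPM with busulfan and up to 133 CPM without). Tnfrsf13c, the receptor for the survival factor BAFF, fell by 0.54 ± 0.11, with values of −0.18 without AOS and −0.89 with AOS.

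Of 20 genes of follicular and marginal zone B cells 7 fell (35.0%, beside 5.13% of all genes), at a median of −0.28. Cd55, which protects cells from complement, stood at 176, 262 and 172 CPM with busulfan and 284, 267 and 283 CPM with busulfan and AOS, against 345, 374 and 341 CPM with AOS and 422, 402 and 391 CPM in controls. The libraries did not overlap, and Cd55 fell by 0.67 ± 0.10 (edgeR adjusted p = 0.0152), with −0.99 without AOS and −0.35 with AOS. Fcer2a, or CD23, a low-affinity receptor for IgE on follicular B cells, fell by 0.74 ± 0.14 with no overlap (106 to 194 CPM with busulfan and 225 to 325 CPM without). The quiescence factor Klf2 fell by 0.45 ± 0.11 and the complement receptor Cr2 by 0.39 ± 0.11, each with overlap. Control 3 again lay near the busulfan libraries, at a level of −0.11 for the B cell list, beside −0.47 to 0.04 with busulfan and 0.17 to 0.28 in the other 5 libraries without it. Without control 3, 14 B cell and 11 follicular and marginal zone genes were called. Without AOS 1, control 1, control 2 or library 2 of busulfan with AOS 0 B cell genes and 1 follicular and marginal zone gene were called, 1 and 2 were called without busulfan 3, 4 and 3 without AOS 3 or library 3 of busulfan with AOS, 5 and 3 without busulfan 1, 7 and 2 without AOS 2, and 10 and 4 without library 1 of busulfan with AOS.

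Of 16 plasma cell genes 3 rose (18.8%, beside 3.1% of all genes) and the other 13 were not called. In all, 14 had a positive and 2 a negative value, at a median of 0.21. Prdm1, the regulator Blimp-1 that turns B cells into plasma cells, rose by 0.47 ± 0.07 (edgeR adjusted p = 0.0159), with 0.22 without AOS and 0.72 with AOS, and was called in all 12 fits with a library left out. Jchain, which joins secreted IgM and IgA, had 825, 924 and 979 CPM (lowest, median and highest) with busulfan and 413, 558 and 981 CPM without, a rise of 0.61 ± 0.17. Its libraries overlapped only through control 3, the highest of all 12, and it was called in 1 of these 12 fits. Derl3, which helps clear misfolded proteins from the endoplasmic reticulum, rose by 0.52 ± 0.12. Without control 3, 9 plasma cell genes were called, and 1 or 2 without each of the others. Of 12 germinal centre genes 0 were called by edgeR, 3 had an unadjusted p under 0.05 and DESeq2 called 1, at a median of 0.13.

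Of 13 MHC class II genes 2 fell (15.4%, beside 5.13% of all genes), at a median of −0.31. These were H2-Ob and H2-Oa, which pair as an inhibitor of peptide loading in B cells. H2-Ob fell by 0.51 ± 0.11 with no overlap (205 to 344 CPM with busulfan and 349 to 450 CPM without). H2-Oa fell by 0.44 ± 0.10, with −0.82 without AOS and −0.05 with AOS. Of 14 MHC class I genes 1 fell (7.14%), the immunoproteasome subunit Psmb10 (−0.21 ± 0.05). Of 18 Toll-like receptor genes 1 fell (5.56%), Unc93b1, which carries these receptors to endosomes (−0.21 ± 0.05, no overlap). Both shares are near the 5.13% of all genes called lower. Of 16 dendritic cell genes 2 fell (12.5%). Clec4a4, an inhibitory lectin of dendritic cells, fell by 0.76 ± 0.15 with no overlap at 1.72 to 2.69 CPM with busulfan and 3.39 to 4.74 CPM without, and the chemokine receptor Ccr7 by 0.38 ± 0.10. With a library left out, the count of class II genes was 0 without AOS 1, control 1, control 2 or library 2 of busulfan with AOS and 4 without control 3. That of class I genes was 0 in 11, of Toll-like receptor genes in 8 and of dendritic cell genes in 5 of the 12 fits.

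Of 21 T cell genes 1 fell (4.76%, beside 5.13% of all genes). All 21 had a negative value, at a median of −0.35, and 9 had an unadjusted p under 0.05. Rasgrp1, an activator of Ras in lymphocytes, had 70.8, 101 and 135 CPM (lowest, median and highest) with busulfan and 130, 151 and 161 CPM without, and fell by 0.56 ± 0.10 (edgeR adjusted p = 0.0195), with libraries 1 and 3 of busulfan with AOS just above control 3, the lowest without the drug. The T cell level of control 3 was −0.35, beside −0.67 to 0.11 with busulfan and 0.07 to 0.48 in the other 5 libraries without it, and 7 genes were called without control 3 and 0 without control 2 or library 2 of busulfan with AOS. Of 12 genes of regulatory T cells and checkpoints 2 rose (16.7%, beside 3.1% of all genes). Pdcd1, the receptor PD-1, rose by 0.74 ± 0.18 (3.58 to 6.54 CPM with busulfan and 1.98 to 4.23 CPM without). Ctla4 rose by 0.55 ± 0.13 (7.91 to 14.4 CPM with busulfan and 5.83 to 8.004 CPM without). Both sets of libraries overlapped, and the count was 0 in 7 of the 12 fits with a library left out.

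Of 13 genes of lipid and orphan receptors of lymphocytes 5 fell (38.5%, beside 5.13% of all genes) and 8 were not called. A positive value was found in 3 of the 13, and the median was −0.35. Gpr132, a receptor of oxidised lipids and lactate, stood at 17.7, 25.0 and 13.7 CPM with busulfan and 31.3, 29.8 and 48.6 CPM with busulfan and AOS, against 52.6, 44.6 and 60.7 CPM with AOS and 58.7, 65.6 and 48.9 CPM in controls. A single library of busulfan with AOS reached into the range of the others. It fell by 1.07 ± 0.17 (edgeR adjusted p = 0.0159), with −1.62 without AOS and −0.53 with AOS. S1pr4, a receptor for sphingosine 1-phosphate, fell by 0.49 ± 0.08 with no overlap (−0.51 without AOS and −0.46 with AOS). Gpr174, a receptor for lysophosphatidylserine, fell by 0.49 ± 0.10 with no overlap. Gpr171 fell by 0.48 ± 0.10, but only the comparison with AOS was called (−1.27, beside 0.31 without AOS), and the difference between them was called too (edgeR adjusted p = 0.0116). With a library left out 2 to 5 of these receptor genes were called, and 7 without control 3.

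Of 16 genes of sialic acid and glycan enzymes 5 fell (31.2%, beside 5.13% of all genes) and 0 rose, at a median of −0.04. Cmah, which converts one sialic acid to another in mice, stood at 164, 218 and 215 CPM with busulfan and 367, 266 and 326 CPM with busulfan and AOS, against 394, 316 and 425 CPM with AOS and 414, 431 and 401 CPM in controls. The group without AOS was far below all libraries without the drug, and 2 of the libraries of busulfan with AOS lay within their range. Cmah fell by 0.65 ± 0.10 (edgeR adjusted p = 0.0159), with −1.06 without AOS and −0.24 with AOS. B3gnt5, which starts lactosyl chains on glycolipids, fell by 0.43 ± 0.11, with −0.91 without AOS and 0.04 with AOS, and St8sia4, a polysialyltransferase, by 0.30 ± 0.07, with −0.58 and −0.02 for these states. The lysosomal sialidase Neu1 fell by 0.25 ± 0.06, with −0.13 without AOS and −0.37 with AOS. The difference between AOS states was not called for these 4 genes (edgeR adjusted p = 0.0881 to 0.396). The list's count was 1 or 2 in 10 of the 12 fits with a library left out, 5 without busulfan 2 and 6 without control 3.

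Of 20 erythroid genes 1 rose (5.0%, beside 3.1% of all genes) and 19 had a positive value, at a median of 0.34: Bpgm, which makes the regulator of oxygen release from haemoglobin, by 0.60 ± 0.14 (267 to 434 CPM with busulfan and 197 to 285 CPM without). Of 12 haem synthesis genes, all had a positive value in each AOS state and 0 were called by edgeR, 6 had an unadjusted p under 0.05 and DESeq2 called 5. Alas2, the rate-limiting erythroid enzyme of haem synthesis, had a value of 0.43 ± 0.13 and Urod, which acts later in that pathway, one of 0.31 ± 0.10. Of 9 globin genes 7 had a positive value in each AOS state, at a list median of 0.34. An unadjusted p under 0.05 was found in 6, DESeq2 called 5 of the list and edgeR called 1 (11.1%, beside 8.23% of all genes). The gene that edgeR called was Hbb-bs, a beta-globin gene with near-identical copies, whose value went against the list median. It stood at 2.11, 1.54 and 1.52 CPM with busulfan but at 841, 14540 and 1271 CPM with busulfan and AOS, against 314, 9951 and 1147 CPM with AOS and 1337, 26.8 and 9368 CPM in controls. The 3 busulfan libraries lay below the other 9, which spread widely within each group. Its fitted fall of 5.23 ± 1.41 was called in 0 of the 12 fits with a library left out.

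Among stem and progenitor genes, 1 rose and 1 fell of 16 (12.5% called, beside 8.23% of all genes). Myb, a transcription factor of blood-forming precursors, rose by 0.51 ± 0.09 with no overlap (72.1 to 103 CPM with busulfan and 49.6 to 69.3 CPM without), and Cd48, an adhesion receptor of blood cells, fell by 0.27 ± 0.07. Of 17 red pulp macrophage genes 1 rose (5.88%, beside 3.1% of all genes), Cd5l, a protein that macrophages secrete. Cd5l rose by 0.81 ± 0.17, with 43.0 to 90.0 CPM with busulfan and 25.2 to 55.8 CPM without, overlapping through AOS 3. Lyz2, lysozyme of myeloid cells, had a value of 0.31 ± 0.10. Of 8 marginal zone macrophage genes 0 were called by edgeR, 4 had an unadjusted p under 0.05 and DESeq2 called 1, and Cd209b, a lectin of these macrophages, had a value of −1.17 ± 0.36 (edgeR adjusted p = 0.0650). Of 24 ribosomal protein, 21 interferon-stimulated, 17 megakaryocyte and 18 stromal genes 0 were called by edgeR, with 0, 0, 1 and 2 at an unadjusted p under 0.05 and 0, 0, 0 and 1 called by DESeq2, and medians of −0.06, 0.16, 0.20 and −0.03. Of 18 complement genes 2 fell (11.1%, beside 5.13% of all genes), and both are B cell receptors or regulators given above (Cd55 and Cr2).

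**Figure D3:**
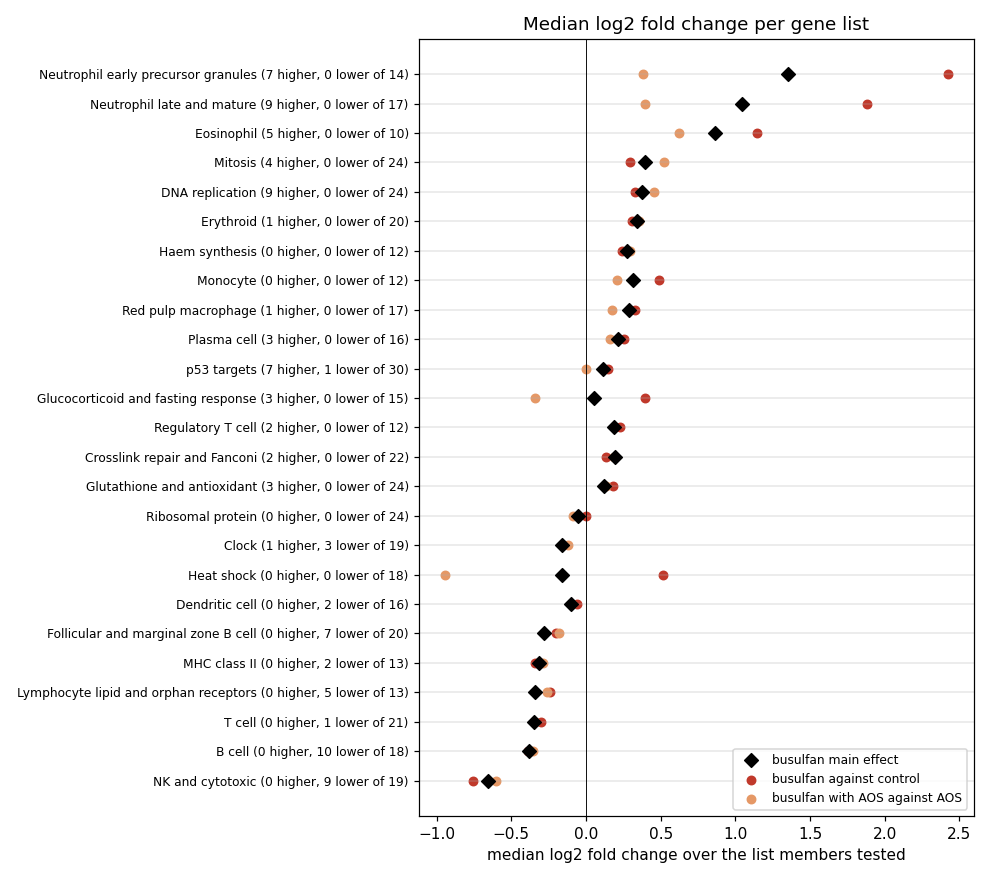
Median log2 fold change over the tested members of 25 gene lists (x axis): black diamonds are the busulfan effect over both AOS states, red circles busulfan against control and orange circles busulfan with AOS against AOS, with the members called higher and lower beside each name. The medians of the B cell and NK lists are close in the 2 AOS states. Those of replication (0.325 without and 0.453 with AOS) and mitosis (0.296 and 0.523) have the same sign and are larger with AOS. Those of the neutrophil lists are apart (2.43 and 0.38 for early granule genes), and those of heat shock and glucocorticoid genes have opposite signs.

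**Figure D4:**
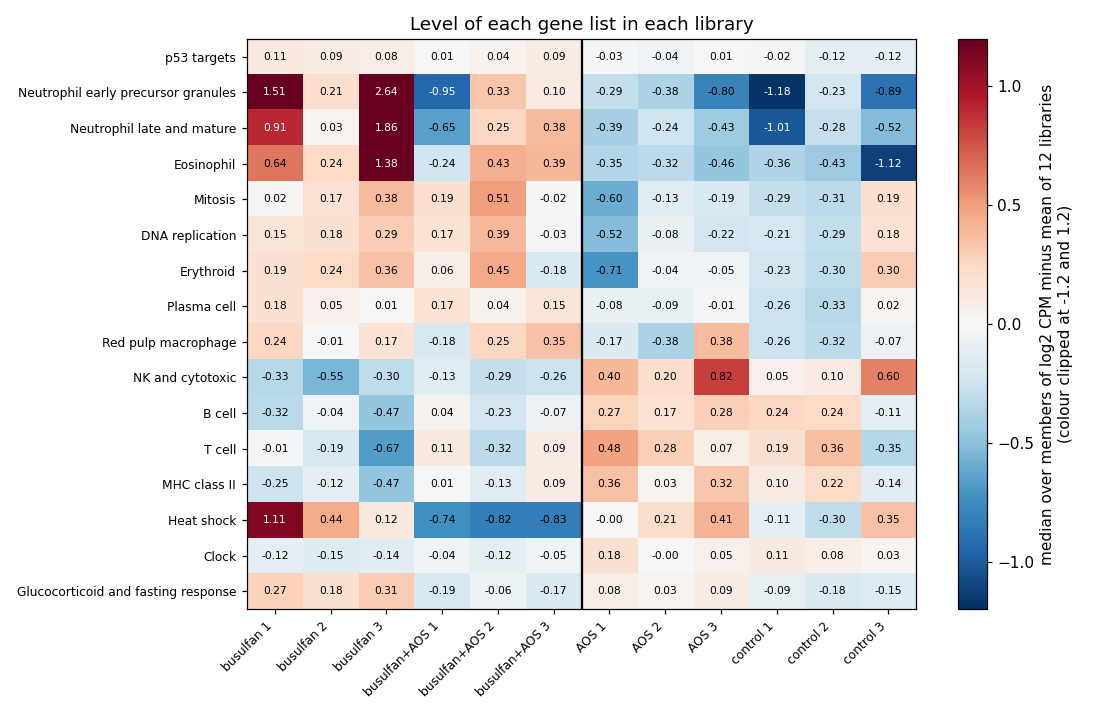
Level of 16 gene lists in each of the 12 libraries, as the members' median distance in log2 CPM from their mean in all libraries, with the 6 busulfan libraries left of the line. The NK row is negative in all 6 (−0.55 to −0.13) and positive in the other 6 (0.05 to 0.83), while control 3 has replication, mitosis, B cell and T cell levels near those of the busulfan libraries.

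The 2 comparisons that make up the effect share no library in their means and can be set side by side. Both came from 1 fit to all 12 libraries with a shared estimate of the spread, so their calls are not independent. Busulfan against control had 71 genes called (0.471%), 20 higher (0.133%) and 51 lower (0.338%), and busulfan with AOS against AOS had 876 (5.81%), 356 higher (2.36%) and 520 lower (3.45%). Of the 876, 579 (66.1%) had the same sign without AOS and 182 (20.8%) also an unadjusted p under 0.05 there. Of the 71, 57 (80.3%) had the same sign with AOS and 27 (38.0%) also an unadjusted p under 0.05. For comparison, 59.2% of all genes tested had the same sign in both. Such a p with either sign was found in 25.6% of all genes with AOS and 20.6% without. These 2 shares do not require the same sign, so they are not like for like with the 20.8% and 38.0%. The genes called in the same direction in both numbered 12, of which 1 rose (Eda2r) and 11 fell, and Klrd1, Rbm12b1, Pde7a, Slc25a23 and Syt14 are among them. Across the 15079 genes the log2 fold changes of the 2 comparisons had a Pearson r of 0.113 and a Spearman rho of 0.242, given as a description since the genes share libraries and are not independent. The test of the difference between the AOS states called 73 genes (0.484%), and 17 of the 1241 genes called for the busulfan effect were among them. These counts rested on single libraries too. Busulfan against control had 0 calls by edgeR without AOS 1, control 1 or control 2 (3073, 2600 and 2027 genes at an unadjusted p under 0.05), 1 to 31 without busulfan 1, busulfan 3, AOS 2, AOS 3 or any library of busulfan with AOS, and 470 without busulfan 2. Busulfan with AOS against AOS had 28 calls without library 2 of busulfan with AOS, 122 to 278 without any other library of these 2 groups and 497 without control 1. The difference had 8 to 35 calls without any one of the AOS, control and busulfan with AOS libraries, 18 without busulfan 1 and 110 without busulfan 3.

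**Figure D5:**
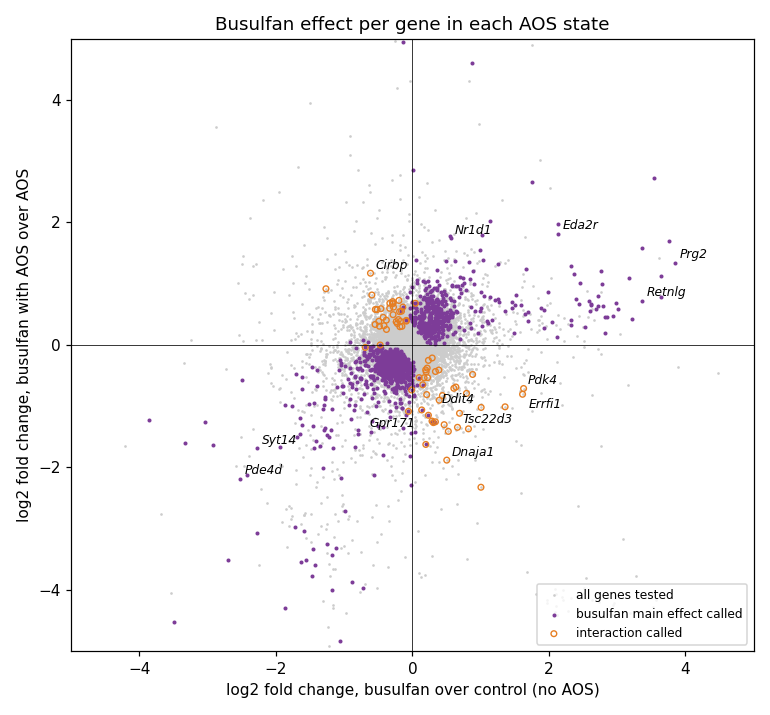
Busulfan effect per gene without AOS (x axis, log2 fold change of busulfan over control) and with AOS (y axis, busulfan with AOS over AOS): grey points are all genes tested, purple points those called over both states, and open orange circles those whose effect differed between the states (58 genes beyond ±5 are not drawn). Called genes lie mainly in the upper right and lower left, Prg2 and Retnlg far to the right with smaller values with AOS, and the orange genes such as Ddit4, Errfi1, Pdk4 and Dnaja1 in the quadrants of opposite sign.

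Some gene groups had values of opposite sign in the 2 AOS states and small ones over both. Of 18 heat shock genes 0 were called by edgeR, 5 had an unadjusted p under 0.05 and DESeq2 called 4, at a median of −0.16, which joins a median of 0.52 without AOS to one of −0.95 with AOS. The chaperone gene Dnaja1 stood at 981, 636 and 391 CPM with busulfan and 169, 150 and 149 CPM with busulfan and AOS, against 478, 592 and 654 CPM with AOS and 432, 365 and 619 CPM in controls. Only the libraries of busulfan with AOS stood apart from the rest. Its value was −0.69 ± 0.20 (edgeR adjusted p = 0.0574), from 0.50 without AOS and −1.88 with AOS, and the difference between these was called (−2.39 ± 0.41, edgeR adjusted p = 0.0405). Cirbp, a cold-inducible RNA-binding protein, was the mirror image: 19.0, 23.7 and 23.4 CPM with busulfan and 66.5, 64.0 and 65.5 CPM with busulfan and AOS, against 37.9, 27.1 and 22.0 CPM with AOS and 36.6, 40.0 and 24.6 CPM in controls. Its value over both states was 0.28 ± 0.14, not called.

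Glucocorticoid and fasting genes had the same split, with a median of 0.39 without AOS, −0.34 with AOS and 0.05 over both. The genes named next were chosen after their values were seen. Ddit4, an inhibitor of mTOR signalling, had a value of −0.01 ± 0.10 over both states, from 1.01 without AOS and −1.02 with AOS. Errfi1, which restrains the epidermal growth factor receptor, Pdk4, which restrains pyruvate dehydrogenase, and Tsc22d3, the glucocorticoid-induced leucine zipper GILZ, had 1.62, 1.63 and 0.66 without AOS and −0.81, −0.71 and −1.35 with AOS. Over both states 3 of the 15 genes of the list rose (beside 3.1% of all genes), with positive values in each state. Angptl4, a regulator of lipoprotein lipase, rose by 0.41 ± 0.09 and Klf9, a glucocorticoid-responsive transcription factor, by 0.34 ± 0.08. The other was Cdkn1a, described above and also counted among the p53 targets. With a library left out, the count of this list was lower in 11 of the 12 fits. It was 0 in 5 of them, and 4 without control 3. Of 19 immediate early genes 0 were called by edgeR, 4 had an unadjusted p under 0.05 and DESeq2 called 1, at a median of −0.07.

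Of 19 clock genes 1 rose and 3 fell (21.1% called, beside 8.23% of all genes), at a median of −0.16. Nr1d1, the repressor REV-ERB alpha, stood at 3.77, 8.15 and 7.28 CPM with busulfan and 13.6, 19.7 and 18.7 CPM with busulfan and AOS, against 5.76, 4.70 and 5.04 CPM with AOS and 4.15, 4.78 and 4.09 CPM in controls. It rose by 1.15 ± 0.18 (edgeR adjusted p = 0.0159), with 0.56 without AOS and 1.74 with AOS, and busulfan 1 lay below all libraries without the drug. Cry1, a repressor of the clock, fell by 0.38 ± 0.08 and Ciart, another repressor, by 0.60 ± 0.16, both with larger values with AOS (−0.65 and −1.04) than without (−0.10 and −0.15). Tef, an activator of clock output, fell by 0.33 ± 0.08, with −0.60 without AOS and −0.05 with AOS. Per1, named after its values were seen, had 0.88 without AOS, −0.48 with AOS and 0.20 ± 0.09 over both, and was not called. The labels do not state the time of day of sampling, so its part cannot be told apart from that of the groups.

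Transcripts of other organs were measured because a spleen sample can carry traces of its neighbours. Of 12 liver genes, all had a negative value in each AOS state, at a median of −2.35. Of these 12, 7 were called lower (58.3%, beside 5.13% of all genes). Mup7, a major urinary protein with near-identical relatives, stood at 6.58, 2.25 and 1.96 CPM with busulfan and 0.53, 1.15 and 0.62 CPM with busulfan and AOS, against 10.3, 19.1 and 2.58 CPM with AOS and 4.85, 19.9 and 4.99 CPM in controls. Mup20, Mup3 and the apolipoprotein Apoa2 fell by 3.11, 2.54 and 2.35 on the log2 scale, each with overlapping libraries. The summed level of the 12 genes was 11.2 to 154 CPM with busulfan and 52.3 to 446 CPM without, and 0 of them were called in 7 of the 12 fits with a library left out. Of 23 acinar genes 0 were called by edgeR or DESeq2 and 0 had an unadjusted p under 0.05, at medians of 2.32 without AOS and −4.16 with AOS, and the highest levels were those of the AOS libraries with the pancreatic shares given above.

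Among the largest changes outside the lists, Slco4c1, an organic anion transporter, and Prom1, the surface protein CD133, rose by 1.81 ± 0.39 and 1.56 ± 0.34 with no overlap. Like the granulocyte genes, both had their highest level in busulfan 3 (15.7 and 13.6 CPM, beside 1.01 to 1.72 and 1.15 to 1.99 CPM without busulfan). The myeloid receptors Clec5a (1.25 ± 0.27) and Clec4e (0.99 ± 0.22) and the chemokine receptor Ccr1 (0.79 ± 0.19) rose without overlap as well. In each direction the rule for the largest changes took only genes whose libraries do not overlap, so that trait was fixed by the choice. With a library left out, Slco4c1 and Prom1 were each called in 6 of the 12 fits, Clec5a in 8, Clec4e in 5 and Ccr1 in 3. Tjp1, the tight junction protein ZO-1, rose more evenly: it stood at 37.1, 43.1 and 54.3 CPM with busulfan and 40.4, 55.0 and 48.6 CPM with busulfan and AOS, against 22.99, 19.99 and 30.4 CPM with AOS and 26.4, 25.7 and 29.2 CPM in controls. Its rise of 0.85 ± 0.13 (edgeR adjusted p = 0.0157) was called in all 12 fits with a library left out. Id1, an inhibitor of basic helix-loop-helix factors, rose by 0.90 ± 0.15, Samd11 by 0.89 ± 0.18, Oaf by 0.68 ± 0.09 and the transcription factor Klf11 by 0.58 ± 0.08, all with no overlap.

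On the lower side, 3 of the genes with the smallest p had nearly the same value in each AOS state. Rbm12b1, an RNA-binding protein (Entrez 72397, chromosome 4, 12138957 to 12148922), stood at 56.6, 56.9 and 56.6 CPM with busulfan and 51.8, 42.5 and 50.2 CPM with busulfan and AOS, against 69.1, 72.7 and 69.1 CPM with AOS and 85.4, 81.3 and 77.7 CPM in controls. The libraries did not overlap, and it fell by 0.54 ± 0.05 (edgeR adjusted p = 0.00433), with −0.52 without AOS and −0.55 with AOS. Pde7a, a phosphodiesterase of cyclic AMP, fell by 0.47 ± 0.05 (148 to 186 CPM with busulfan and 211 to 235 CPM without). Slc25a23, a mitochondrial carrier of ATP and phosphate, fell by 0.62 ± 0.07 (14.9 to 17.9 CPM with busulfan and 23.2 to 28.9 CPM without). Together with Eda2r and Klrd1, these 3 were called under each of the 28 alternatives fitted. Pbx2 and Tmod4 fell by 0.39 ± 0.05 and 0.63 ± 0.08, with larger values with AOS (−0.61 and −1.02) than without (−0.17 and −0.25), a difference that was not called (edgeR adjusted p = 0.0676 and 0.0574).

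Pde4d, another phosphodiesterase of cyclic AMP, fell by 2.36 ± 0.51 with no overlap. The authors' FPKM values gave a wider gap, with a mean of 4.62 FPKM with busulfan and 186.5 FPKM without. Over the 28 alternatives the log2 value was −4.33 (on FPKM) to −1.50. It was called in 7 of the 12 fits with a library left out, and not without both control 1 and AOS 2 (edgeR adjusted p = 0.0836). Its 6 busulfan libraries were alike (29.4 to 45.2 CPM), while those without the drug were split into 3 at 47.2 to 71.1 CPM and 3 at 288 to 366 CPM, with both kinds in the AOS and control groups. Syt14, of the synaptotagmin family, fell by 1.98 ± 0.28 (0.58 to 1.60 CPM with busulfan and 3.25 to 8.38 CPM without) and was called in each AOS state. The lectin Cd209d (−1.39 ± 0.22) and the phosphatase Ppm1j (−1.12 ± 0.17) fell by more than a log2 of 1 with no overlap and were called in all 12 fits with a library left out. The steroid 21-hydroxylase Cyp21a1 (−1.17 ± 0.26), the non-classical MHC gene H2-M2 (−1.13 ± 0.31) and the Rap1 inactivator Rap1gap (−0.90 ± 0.24) fell with no overlap but were called in 6, 3 and 0 of these fits. The rule also chose LOC108167383 (−1.51 ± 0.41) and A430078G23Rik (−1.10 ± 0.16).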

How the data were processed

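Spleen RNA was sequenced in 12 libraries, 3 in each of 4 groups given by the labels' codes; the code SBA0 was read as busulfan without AOS. The deposited table holds estimated counts per gene (75.7% of values whole) and expression values that follow FPKM: for 1226 genes with at least 2000 counts, they matched FPKM scaling within 0.39%. Both were made by the authors on build mm10 according to the submitters' processing notes. Aligner, counter, annotation and strand setting: not given in the sources used here. Another 8 columns of group averages were not used. Of 19376 rows, 18362 carry Entrez numbers, of which 18229 matched RefSeq genes of GRCm38.p6, and 1014 carry identifiers of the table's own with 2.72% to 3.13% of the counts.

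Counts were rounded and fitted with edgeR 4.0.16 in R 4.3.3 (filterByExpr, TMM factors 0.965 to 1.04, quasi-likelihood test, 1 mean per group, Benjamini-Hochberg adjustment over 15079 genes, called under 0.05, two-sided). CPM uses the scaled library sizes; 3 counts equal 0.185 to 0.199 CPM, which covers counting error only. SE is the log2 fold change divided by the square root of F. Replicate libraries differed by more than counting error (chi-square over its degrees of freedom 15.9 to 72.7). On simulated data for the busulfan effect (15079 genes), 86% of changes of 1 and 54% to 62% of changes of 0.5 on the log2 scale were recovered, with 12 false among 156 calls. The simulated counts were drawn gene by gene, with equal expected levels in all libraries apart from the changed genes. They hold no differences between libraries that many genes share, so these rates need not apply to the real libraries.

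The comparison, the 43 gene lists (688 of 691 genes in the table) and the rule for named genes were chosen with earlier results of these data known, so no p is given over a list. Named are, in each direction, the 12 largest called changes with no overlap and a mean of at least 5 CPM on the higher side, the 5 smallest p, and in each list up to 4 called members, or 2 members where none was called. Alternatives used DESeq2 1.42.0, limma 3.58.1 (on counts, and on log2 of FPKM plus 0.5 or 0.1), other scalings and filters, covariates, a replicate block and fits with libraries left out. Some genes that this rule chose are not reported here.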

Additional observations from a re-analysis of the deposited data

Results flagged for a closer look

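The effect of busulfan differed between the AOS states in 73 genes by edgeR's test of the difference (adjusted p under 0.05), and 9 of these are named here with the log2 fold change with AOS minus that without. Lower with AOS were Errfi1 (−2.42), Dnaja1 (−2.39), Pdk4 (−2.34), Ddit4 (−2.03), Tsc22d3 (−2.01), the constitutive chaperone gene Hspa8 (−1.94), Gpr171 (−1.58) and Per1 (−1.37), and higher was Cirbp (1.79). Heat shock genes took 0.418% to 0.450% of counts in busulfan with AOS and 0.654% to 1.43% in the other 9 libraries. With the level of the heat shock genes as a covariate, 0 genes were called for the difference by edgeR, 979 having an unadjusted p under 0.05, and with that of the acinar genes 1 was called. The heat shock level itself followed this difference. Its list median was 0.118 to 1.114 in busulfan and −0.827 to −0.736 in busulfan with AOS, and 5 heat shock genes were called lower for the difference. That covariate therefore takes up part of the difference tested, and its count cannot separate the 2.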

How the results depend on the processing

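The 1241 genes called for the busulfan effect became 2321 with DESeq2, 537 on FPKM without a filter, 720 in an additive model, 532 with an acinar and 210 with a heat shock covariate, 9 without both control 1 and AOS 2, and 83 to 2054 with a library left out. Busulfan against control (71) gave 893 with DESeq2, 13, 18 and 5 on FPKM (pseudocount 0.1, 0.5, and 0.5 without a filter), 45 with limma-voom, 42 without a filter, 138 without scaling, 4 with the heat shock covariate, 0 by edgeR from its own 6 libraries or without both libraries (2543 and 2522 with an unadjusted p under 0.05), and 0 to 470 with a library left out. Busulfan with AOS against AOS (876) gave 1734 with DESeq2, 516 on FPKM without a filter, 440 from its own 6 libraries, 50 without both libraries, 0 by edgeR with either covariate (2088 for heat shock and 2083 for acinar genes with an unadjusted p under 0.05), and 28 to 913 with a library left out. The difference between AOS states (73) gave 614 with DESeq2, 122, 117 and 45 on FPKM, 43 without a filter, 128 without scaling, 0 and 1 with the heat shock and acinar covariates, 7 without both libraries, and 8 to 110 with a library left out. Without scaling, calls with AOS split into 419 higher and 312 lower and those of the difference into 94 and 34; on FPKM with pseudocount 0.5 they split into 485 and 316, and 82 and 35. Same-numbered libraries of different groups correlated over 0.1 in 5 of 18 pairs (range −0.074 to 0.267). Differently numbered ones did so in 5 of 36 pairs (range −0.281 to 0.2). Whether the replicate numbers mark a pairing or a batch was not tested further. A replicate block gave 1292, 10, 897 and 33 calls. Of the 108 called genes followed, 0 changed sign. Ddit4, not called (−0.007), was 0.002 in the additive model, 0.003 without globin and acinar genes, 0.016 with the heat shock covariate and −0.078 to 0.066 with a library left out. Both covariates differed between the groups compared. The acinar list median was 2.963 to 6.811 in AOS and −1.293 to 2.68 in busulfan with AOS, and the heat shock level is given above. Fits with a covariate therefore take up part of the group difference itself. The cause of these changes was not tested.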
